A study of Canis lupus familiaris with 222 samples.

Results

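Of the canine mammary tumors (CMTs) with a transcriptome cluster, 7 belonged to NMF4 and 150 to another cluster, and the 7 were compared with the 92 tumors of NMF1, the largest cluster. The members were taken by the cluster that the study assigned to each tumor, and the 64 adjacent normal mammary tissues were set beside both groups. All samples came from female pet dogs with spontaneous tumors. RNA-seq of poly(A) RNA from fresh tissue gave 222 libraries, 158 of tumors and 64 of normal tissue. Normal tissue was paired with a tumor by animal: 4 of the NMF4 dogs and 37 of the NMF1 dogs had both tissues, and 55 NMF1 tumors had no normal partner. The sample labels name no treatment, and both clusters held intact and neutered dogs. Where age was recorded, the dogs were aged 7 to 16 years in NMF4 and 2 to 19 years in NMF1.

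The mammary gland is built of secretory luminal epithelium, a contractile layer of myoepithelium and a stroma with fat, vessels and immune cells. Mammary tumors of dogs arise without induction, are often simple (epithelium alone), complex (epithelium and myoepithelium) or mixed (with cartilage or bone), and many keep the estrogen receptor (ER). Non-negative matrix factorization (NMF) splits a matrix of expression values into a few metagenes, each a weighted set of genes, and a sample can be assigned to the metagene that it carries most strongly. The study factorized the tumors together with the normal tissues, and the NMF4 and NMF5 metagenes were strongest in normal tissue. A likeness of NMF4 tumors to normal tissue is therefore built into the cluster, as it is for NMF5. Every value below that uses the tumors' own expression describes the cluster and is not independent evidence for it. The p-values of these comparisons rank identifiers and do not test whether the clusters differ.

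The values were FPKM, fragment numbers divided by the transcript's length and the library's size, for 24580 Ensembl gene identifiers, of which 3857 were listed at 0 in every tumor with a cluster and every normal tissue. The files pair no identifier with a gene name, so genes appear by identifier, and neither the mammary origin of the samples nor their cell types were checked against marker genes. FPKM does not keep the read depth behind each value, and the sequencing information that the study gives for its RNA-seq was not used here. Tests used limma on the log2(FPKM + 1) scale for identifiers averaging 0.5 FPKM or more, and an identifier was called when its adjusted p was under 0.05 and its log2 difference at least 1. In bulk tissue, fewer cells of a type and less RNA per cell cannot be told apart.

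The 7 NMF4 tumors had no common diagnosis. CMT-259 and CMT-606 were tubulopapillary simple carcinomas of grade 1, and CMT-613 was a solid simple carcinoma of grade 3 with lymphatic invasion. CMT-308 was a complex carcinoma of grade 2. CMT-505 (grade 1) and CMT-756 (grade 2) were carcinomas arising in benign mixed tumors. CMT-755 was a benign simple adenoma. ER Allred scores, which combine the share and intensity of stained nuclei, were 8 in 5 of the tumors, 4 in CMT-308 and 2 in CMT-613, the single ER-negative tumor. HER2 staining scored 3 in CMT-505, CMT-613 and CMT-756. All 7 tumors were in the non-basal class of the study, as were 74 of the 92 NMF1 tumors.

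None of 10 clinical labels separated the NMF4 dogs from the NMF1 dogs. Malignant tumors made up 6 of 7 in NMF4 (85.7%, exact 95% interval 42.1% to 99.6%) and 66 of 92 in NMF1 (71.7%). Simple histology was recorded for 4 of 7 (57.1%) and 48 of 92 (52.2%), grade 3 for 1 of 7 (14.3%) and 13 of 92 (14.1%), and ER-positive status for 6 of 7 (85.7%) and 79 of 91 (86.8%). HER2 score 3 was found in 3 of 7 (42.9%) against 23 of 91 (25.3%). Lymphatic invasion was present in 1 of 7 and 7 of 92, and intact dogs were 4 of 6 and 64 of 90. Age was 12 years ± 3.29 (SD, n = 6) in NMF4 and 11.8 years ± 2.69 (SD, n = 88) in NMF1. The mean Allred score was 6.57 ± 2.51 (SD, n = 7) against 5.91 ± 2.20 (SD, n = 91). The lowest two-sided p among Fisher's exact tests and exact permutation tests was 0.196, and after Benjamini-Hochberg adjustment over the 10 labels every exact p was 1. That p belonged to the year of surgery, the nearest thing to a batch in the labels: 0 of the 7 NMF4 tumors and 23 of the 92 NMF1 tumors were removed in 2016. With 7 tumors the interval for a share of 0 reaches 40.96%, so these tests leave room for large differences.

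Every NMF4 tumor lay further toward normal tissue than any NMF1 tumor along the line that joins both groups. Each library was projected on the line from the mean NMF1 tumor, set to 0, to the mean normal tissue, set to 1, over 14709 identifiers, with the libraries of its own dog left out of both means. CMT-755 was at 0.620, CMT-259 at 0.774 and CMT-505 at 0.787. CMT-308 was at 1.05, CMT-613 at 1.32, CMT-606 at 1.34 and CMT-756 at 1.49. The 3 tumors lowest on the line had no sequenced normal tissue, and the 4 highest had one. The NMF1 tumors ranged from -0.273 to 0.456 with a median near 0 (0.000897), and 0 of 92 reached CMT-755. On this line the benign adenoma was the NMF4 tumor nearest to NMF1, whereas by root mean square distance to the NMF1 mean CMT-505 (0.727) and CMT-259 (0.775) were nearer than CMT-755 (0.782). The solid carcinoma of grade 3 was among the tumors beyond the normal mean on the line. Normal tissues spread more widely, from 0.136 to 1.74 with a median of 0.993, and 14 of 64 lay below the lowest NMF4 tumor. In the other clusters, 4 of 35 NMF2 tumors, 1 of 18 NMF3 tumors and 1 of 5 NMF5 tumors were at or above CMT-755.

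A second measure took its identifiers and both of its means from NMF1 dogs with both tissues, whose tumors belong to the NMF1 group. The NMF4 tumors were therefore set first beside the NMF1 tumors of other dogs. Over the 1104 identifiers that differed between tumor and own normal tissue in the 37 NMF1 dogs with both (7.52% of 14681 tested), each library was scored by the share lying nearer to the normal mean than to the tumor mean. CMT-606 had 89.5% of them nearer to normal. CMT-308 had 79.3%, CMT-613 77.5%, CMT-756 76.99%, CMT-505 66.8% and CMT-259 61.0%. CMT-755 was lowest at 50.996%. The 55 NMF1 tumors of dogs without sequenced normal tissue ranged from 7.16% to 47.1% with a median of 20.6%, below each NMF4 tumor. Of all 92 NMF1 tumors, 1 was above CMT-755, CMT-743 at 51.7%, whose dog helped to choose the identifiers. Normal tissues of the 27 dogs outside NMF1 ranged from 28.9% to 92.8% with a median of 68.3%, so the NMF4 tumors lay within the normal range, and 8 of these 27 tissues lay below CMT-755.

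**Figure D1:**
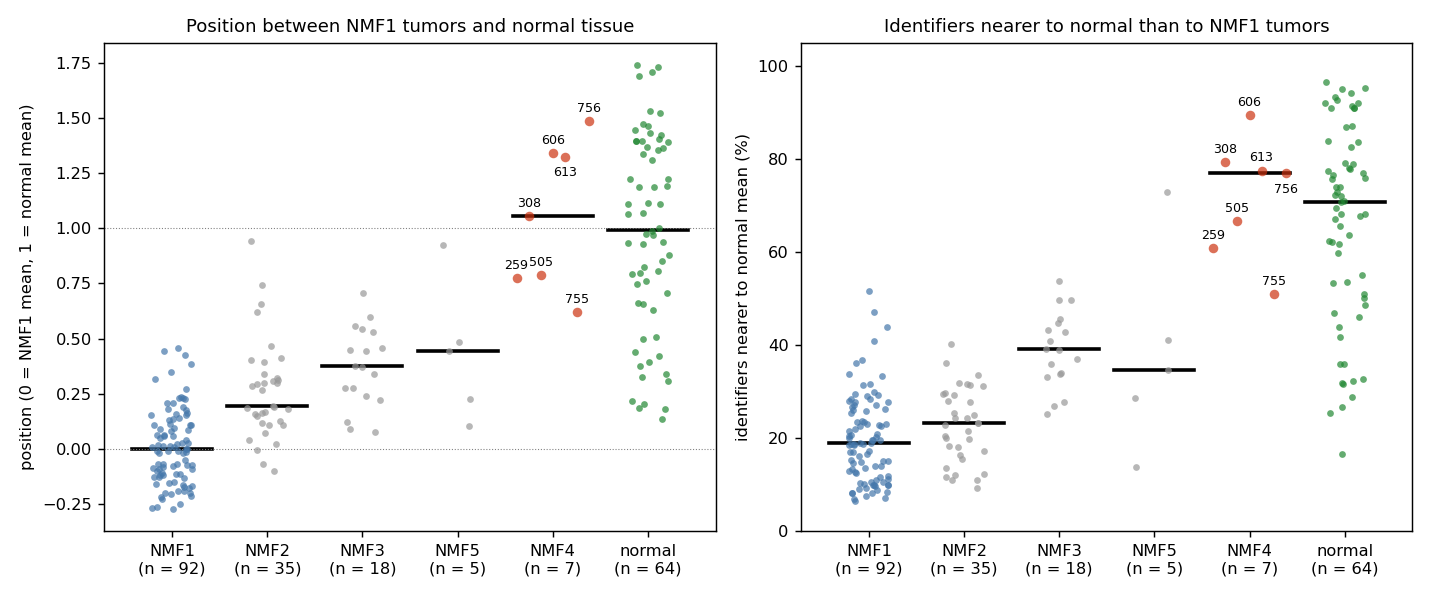
Each point is 1 library, with NMF4 tumors labelled by dog number and black lines at group medians. The left panel shows the position from the NMF1 mean (0) to the normal mean (1), where NMF4 runs from 0.620 to 1.49 and no NMF1 tumor passes 0.456. The right panel shows the percentage of 1104 identifiers nearer to the normal mean, from 50.996% to 89.5% in NMF4; the NMF1 column includes the 37 tumors that helped to choose the identifiers, and 1 of them, at 51.7%, lies above the lowest NMF4 tumor.

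Likeness of whole profiles gave the same placement with 1 exception. By Pearson correlation of log2 values, the library most similar to CMT-606 was the dog's own normal tissue (r = 0.960). For CMT-259, CMT-308, CMT-613, CMT-755 and CMT-756 it was the normal tissue of another dog, with r between 0.931 and 0.948. CMT-505 was most similar to an NMF5 tumor, CMT-480 (r = 0.937), and its 10 most similar libraries held 4 normal tissues and 4 NMF1 tumors. In all, 6 of 7 NMF4 tumors had a normal tissue as nearest library, against 5 of 92 NMF1 tumors (5.43%) and 44 of 64 normal tissues (68.8%). The same held for 3 of 5 NMF5 tumors (60%), 5 of 35 NMF2 tumors (14.3%) and 0 of 18 NMF3 tumors. A normal tissue as nearest library was therefore not particular to NMF4. The 21 correlations between NMF4 tumors ran from 0.786 to 0.937 with a median of 0.880, against medians of 0.898 within NMF1 and 0.856 within normal tissue. The median standard deviation over identifiers on the log2 scale was 0.438 in NMF4, 0.452 in NMF1 and 0.533 in normal tissue.

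Between NMF4 and NMF1, 1286 of 14532 identifiers were called (8.85%), 821 higher and 465 lower in NMF4. The split depends on how low values are treated: it was 1048 higher and 1061 lower with a pseudocount of 0.1, and 444 and 389 with a minimum mean of 5 FPKM. At the pseudocount of 1, a log2 difference of at least 2 was seen for 28.1% of the 821 higher identifiers and for 9.03% of the 465 lower ones, and a difference of at least 4 for 21 and 1. At the median, higher identifiers had 12.2 FPKM in NMF4, 2.63 in NMF1 and 9.04 in normal tissue. Lower identifiers had 3.92 FPKM in NMF4, 11.7 in NMF1 and 4.46 in normal tissue. In both directions the normal median was nearer to that of NMF4, over identifiers chosen on these tumors.

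Some identifiers went from near absence to a clear level. Of the higher set, 48 had a median of at least 5 FPKM in NMF4 and under 1 FPKM in NMF1, and normal tissue was at 5 FPKM or more for 32 of these 48 and under 1 FPKM for 0. The reverse, at least 5 FPKM in NMF1 and under 1 FPKM in NMF4, was found for 18 of the lower set. Normal tissue was under 1 FPKM for 8 of the 18 and at 5 FPKM or more for 1. The higher identifiers together took 6.18% to 18.0% of all FPKM of an NMF4 library (median 8.54%), 1.28% to 5.82% in NMF1 (median 2.35%) and 1.64% to 26.1% in normal tissue (median 10.1%). CMT-756 had the largest share and CMT-505 the smallest in NMF4. For the lower identifiers these shares were 0.327% to 3.64% in NMF4, 3.38% to 12.8% in NMF1 and 0.319% to 9.27% in normal tissue. They hold ENSCAFG00000022728, which is listed at 0 in 2 NMF4 tumors, CMT-308 and CMT-756. Without it, a setting chosen after the values were seen, the shares were 0.327% to 2.79% in NMF4 (median 0.992%) and 1.80% to 9.78% in NMF1 (median 4.72%). Those of normal tissue were then 0.319% to 4.89% (median 1.25%). NMF4 and NMF1 overlapped both with this identifier and without it.

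The calls were made from these same tumors, so most of them lie on the called side by selection. For 566 of the 821 higher identifiers (68.9%) each NMF4 tumor exceeded the NMF1 median, and for 305 of the 465 lower ones (65.6%) each was under it. CMT-755 took the called side least often, for 83.9% of the higher and 90.3% of the lower identifiers. CMT-505 and CMT-606 were above the NMF1 median for 97.8% of the higher identifiers, and CMT-613 was under it for 99.8% of the lower ones.

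A pair of libraries weighed on the lower set. CMT-756 and CMT-613 had median FPKM values of 4.74 and 5.35 over the 14709 identifiers, below all 92 NMF1 tumors (lowest 5.63), while 8 of 64 normal tissues were also below 5.35. Without CMT-756 the lower calls fell from 465 to 265 and the higher calls from 821 to 747. Without both, a setting chosen after the values were seen, 835 calls were left, 673 of them higher (80.6%, against 63.8% with all 7 tumors). Among tumors of 2017 and 2018, which leaves out 23 NMF1 tumors and 0 NMF4 tumors, there were 790 higher and 492 lower calls. With surgery year as a covariate there were 761 and 455. Among malignant tumors the counts were 878 and 580, and against the non-basal NMF1 tumors 791 and 539.

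At a pseudocount of 1 the largest difference was that of ENSCAFG00000025410, which was very abundant in NMF4. It had 19345 FPKM in CMT-756, 5286 in CMT-259, 3682 in CMT-613, 2460.2 in CMT-505, 1924 in CMT-606, 659.4 in CMT-308 and 81.2 in CMT-755. NMF1 tumors ran from 0.240 to 1293 FPKM with a median of 17.3, and normal tissues from 1.08 to 25775 with a median of 1299.9. All 7 NMF4 tumors were above the NMF1 median, but the groups overlapped, since 23 of 92 NMF1 tumors exceeded CMT-755. All 5 NMF5 tumors were also above the NMF1 median (median 383 FPKM), while NMF2 and NMF3 had medians of 9.55 and 29.1 FPKM. The log2 difference between NMF4 and NMF1 was 6.46 (SE 0.91, limma adjusted p = 2.14e-08), and between NMF4 and normal tissue 1.04 (SE 1.12, limma adjusted p = 1.00).

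ENSCAFG00000018828 was nearly silent in NMF1, at 0.0119 to 78.8 FPKM with a median of 0.480. In NMF4 it had 1677 FPKM in CMT-756, 591 in CMT-613, 325 in CMT-259, 271.7 in CMT-308, 111 in CMT-606, 46.1 in CMT-505 and 2.43 in CMT-755. Normal tissues ran from 0.184 to 1901 FPKM with a median of 83.0. Here too CMT-755 was the low tumor, and 21 of 92 NMF1 tumors exceeded it. With a pseudocount of 0.1 its log2 difference from NMF1 was the larger, at 7.37 against 6.66 for ENSCAFG00000025410. At a pseudocount of 1 it was 6.10 (SE 0.57, limma adjusted p = 2.07e-15) and that from normal tissue 1.52 (SE 1.11, limma adjusted p = 1.00).

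Lower in NMF4 was ENSCAFG00000015860, with 1 tumor apart from the rest. It had 879 FPKM in CMT-259, 6.72 in CMT-308, 3.14 in CMT-755, 1.80 in CMT-505, 1.76 in CMT-606 and 1.68 in CMT-756, and was listed at 0 in CMT-613. NMF1 tumors had a median of 165 FPKM and a maximum of 24030.2, with 1 tumor listed at 0, and normal tissues a median of 3.60 and a maximum of 4099. Thus 6 of 7 NMF4 tumors lay near the normal median, and CMT-259 lay above the NMF1 median. Low values were not particular to NMF4. Medians were 7.32 FPKM in NMF5 (5 of 5 tumors below the NMF1 median), 7.07 in NMF3 and 248 in NMF2. The log2 difference between NMF4 and NMF1 was -4.02 (SE 1.23, limma adjusted p = 0.00738), and without CMT-259 it was -5.19. Without CMT-756 and CMT-613 it was -3.21 and no longer called (limma adjusted p = 0.131).

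ENSCAFG00000022728, also lower, is among the most abundant identifiers, and its values at 0 decide its size. It had 10528 FPKM in CMT-505, 9351 in CMT-613, 6608 in CMT-606, 2480.2 in CMT-755 and 2445 in CMT-259, and was listed at 0 in CMT-308 and CMT-756. NMF1 had a median of 15882 FPKM, and normal tissue one of 4711, with 6 libraries at 0 in each. NMF2 tumors had a median of 3002 FPKM, with 13 of 35 at 0, so neither the low level nor the zeros were particular to NMF4. Medians were 14770 FPKM in NMF3 (2 of 18 at 0) and 12187.5 in NMF5 (0 of 5 at 0). Such zeros occurred for 10 of the 90 identifiers with a median of at least 1000 FPKM, and an exact 0 in such a table can be a failed estimate. All 7 NMF4 tumors were under the NMF1 median. The log2 difference was -3.97 (SE 1.45, limma adjusted p = 0.0236) over all libraries. It was -2.50 and no longer called without CMT-308 (limma adjusted p = 0.186) or without CMT-756 (limma adjusted p = 0.219). Over the libraries above 0, a setting chosen after the values were seen, it was -1.33 (limma adjusted p = 0.0298).

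**Figure D2:**
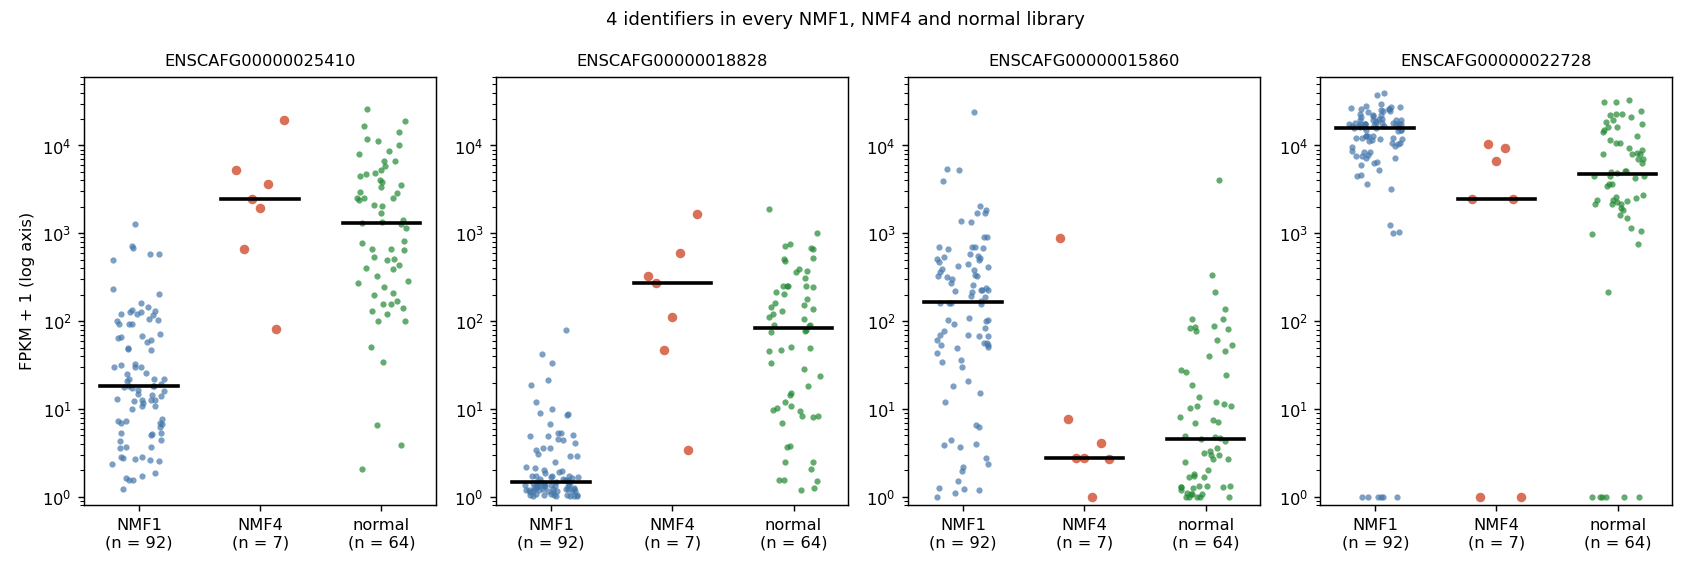
FPKM + 1 on a log axis in every NMF1 tumor, NMF4 tumor and normal tissue, 1 point per library with black lines at medians. For ENSCAFG00000025410 and ENSCAFG00000018828 the NMF4 and normal medians lie above that of NMF1, and for ENSCAFG00000015860 and ENSCAFG00000022728 below it; points at 1 are listed at 0 FPKM.

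Set against the normal tissues, the same 7 tumors gave no call. Of 14614 identifiers tested between NMF4 and normal tissue, limma called 0 (0%), 379 had an unadjusted p under 0.05 (2.59%), and the smallest adjusted p was 0.419. The log2 difference was at least 1 in size for 174 identifiers (1.19%), against 1418 (9.76%) in the comparison with NMF1. The median standard error was larger in the comparison with normal tissue (0.21) than in that with NMF1 (0.18). It was 1.11 against 0.57 for ENSCAFG00000018828, 1.12 against 0.91 for ENSCAFG00000025410 and 1.63 against 1.45 for ENSCAFG00000022728. For ENSCAFG00000015860 it was smaller, at 1.06 against 1.23. The part of this precision in the absence of calls was not tested. The absence of calls does not show that NMF4 tumors and normal tissue were equal. The 174 identifiers differed by as much as a call requires and missed the threshold on p. NMF1 against the same normal tissues gave 1049 calls of 14709 (7.13%), 409 higher and 640 lower in the tumors.

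The 3 groups were compared over the called identifiers, in comparisons that share their libraries. For the 821 higher identifiers the median log2 difference was 1.55 between NMF4 and NMF1, 0.47 between NMF4 and normal tissue and -1.14 between NMF1 and normal tissue. For the 465 lower identifiers these medians were -1.27, -0.19 and 1.08. Over all 14532 identifiers they were -0.16, 0.01 and 0.16. The called identifiers were chosen for their difference between these NMF4 and NMF1 tumors, so nothing is read from the side of normal tissue on which NMF4 lies.

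The same question was asked with libraries that are not shared. NMF4 was compared with the 55 NMF1 tumors that had no normal partner, and 1399 of 14512 identifiers were called (9.64%), 856 higher and 543 lower. Tumor and own normal tissue were compared in the 37 other NMF1 dogs, with 437 identifiers (2.98%) called higher and 4.54% called lower in the tumor. Of the 856 identifiers higher in NMF4, 512 (59.8%) were lower in NMF1 tumors than in their own normal tissue, which is 76.8% of all those called lower there, and 0 were called higher. Of the 543 identifiers lower in NMF4, 224 (41.3%) were higher in NMF1 tumors than in their own normal tissue, which is 51.3% of the 437, and 0 were called lower. The median change from own normal tissue was -1.13 for the first set and 0.91 for the second. Identifiers that set NMF4 apart from NMF1 were often those that changed, in the opposite direction, when NMF1 tumors were compared with normal gland. Unshared libraries do not make this independent evidence. The clusters came from a factorization that held all these libraries, with NMF4 and NMF5 metagenes strongest in normal tissue.

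**Figure D3:**
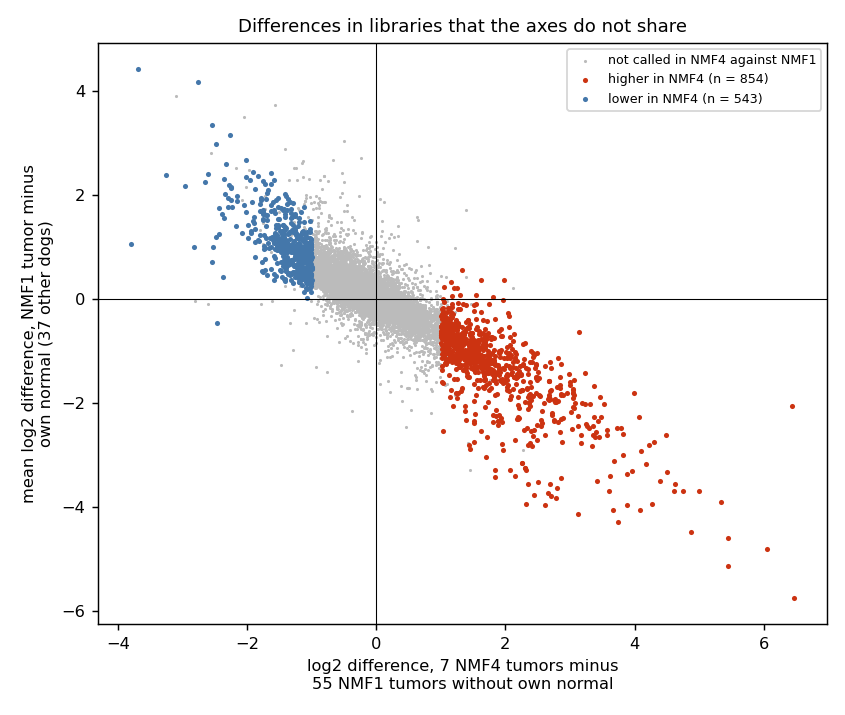
Each point is 1 identifier, with the log2 difference between 7 NMF4 tumors and 55 NMF1 tumors on the horizontal axis and the mean log2 change from own normal tissue in 37 other NMF1 dogs on the vertical axis. Called identifiers higher in NMF4 (854 of the 856, those also tested in the pairs) lie mostly below 0 on the vertical axis, and the 543 lower ones mostly above 0.

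The dogs with both tissues show the change within an animal. In all 37 NMF1 dogs the tumor was lower on the line than its own normal tissue, with changes from -1.64 to -0.0728 and a median of -1.04. In NMF4 dogs the change was -0.341 in CMT-308, -0.107 in CMT-613 and -0.0516 in CMT-606, and CMT-756 moved the other way, by 0.298. These changes overlapped with those of 6 NMF1 dogs, whose normal tissues were themselves low on the line (0.136 to 0.338). The 4 NMF4 dogs instead had normal tissues high on it, at 1.19 in CMT-756, 1.39 in CMT-308 and CMT-606 and 1.43 in CMT-613, a level reached by 15 of the 37 normal tissues of NMF1 dogs. In the other clusters the change ran from -0.141 to -0.0537 in 2 NMF5 dogs, from -1.39 to 0.0110 in 7 NMF3 dogs and from -1.24 to -0.209 in 14 NMF2 dogs.

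**Figure D4:**
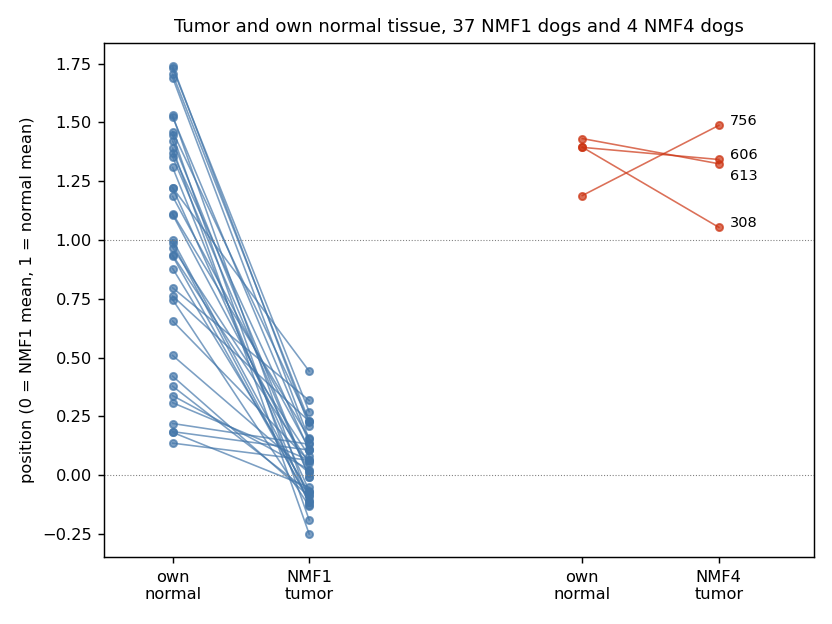
Position on the line from the NMF1 mean (0) to the normal mean (1) for tumor and own normal tissue, with 1 line per dog and NMF4 dogs labelled by number. All 37 NMF1 lines fall. Of the 4 NMF4 lines, that of CMT-756 rises and the others fall, and the NMF4 tumors lie between 1.05 and 1.49.

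NMF4 tumors were still not copies of the gland beside them. A log2 difference of at least 1 from the own normal tissue was found for 3340.0 identifiers in CMT-756, 2297 in CMT-308, 1999 in CMT-613 and 868 in CMT-606, against 611 to 5585 with a median of 2874 in NMF1 dogs. The correlation with the own normal tissue was 0.960 in CMT-606, above all 37 NMF1 dogs (0.761 to 0.950). It was 0.884 in CMT-308, 0.875 in CMT-613 and 0.845 in CMT-756, close to the NMF1 median of 0.860. Among all 220 other libraries the own normal tissue ranked 1 in similarity for CMT-606, 13 for CMT-308, 30 for CMT-756 and 46 for CMT-613.

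Both leading identifiers changed in opposite directions between these dogs. ENSCAFG00000025410 was higher in the tumor of CMT-756 than in its normal tissue (19345 against 198 FPKM) and in that of CMT-613 (3682 against 101). It was lower in the tumor of CMT-308 (659.4 against 16807) and of CMT-606 (1924 against 4691). ENSCAFG00000018828 was split in the same way, with 1677 against 8.66 FPKM in CMT-756 and 591 against 32.2 in CMT-613, and with 271.7 against 708 in CMT-308 and 111 against 177 in CMT-606. CMT-756 and CMT-613 are also the libraries with the low median FPKM, and the part of that low median in this split was not tested. The lower ENSCAFG00000015860 was at 0.669 FPKM or more and 6.56 FPKM or less in the 4 normal tissues.

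A test of the difference in change between 4 NMF4 dogs and 37 NMF1 dogs called 71 of 14681 identifiers (0.484%), 35 higher and 36 lower. For the 35, the median log2 change from own normal tissue was 1.12 in NMF4 dogs and -1.09 in NMF1 dogs, and for the 36 it was -0.51 and 0.95. ENSCAFG00000018828 was among them, with a difference in change of 7.20 (SE 1.50, limma adjusted p = 0.0318). ENSCAFG00000025410 had a difference of 7.21 (SE 1.94, limma adjusted p = 0.0590) and was not called. The count rested on single dogs: it was 2 without CMT-756, 14 without CMT-613 and 32 without CMT-606, and it rose to 1.55% of identifiers without CMT-308. After quantile normalization it was 56, now 50 higher and 6 lower, so the balance of directions depends on the scaling.

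The normal tissues of the 4 NMF4 dogs were not told apart from those of the 37 NMF1 dogs. Of 14595 identifiers, limma called 0 (0%), and 1.80% had an unadjusted p under 0.05. A log2 difference of at least 1 in size was seen for 395 identifiers (2.71%), at a median standard error of 0.26. Normal tissues were given no cluster but entered the same factorization, and 4 tissues set wide limits. ENSCAFG00000025410 differed by -0.10 (SE 1.51) and ENSCAFG00000018828 by 0.46 (SE 1.54) between both sets of normal tissue.

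Technical measures of the NMF4 libraries, apart from the low medians of CMT-756 and CMT-613, lay within or close to the ranges of the other groups. The sum of FPKM was 594793 to 798210.0 in NMF4, 502537 to 748586 in NMF1 and 560397 to 1074140.0 in normal tissue. Identifiers above 0 numbered 16433 to 17289 in NMF4 and 15887 to 17648 in NMF1. The 50 most abundant identifiers took 31.3% to 45.5% of the FPKM in NMF4 and 30.6% to 48.7% in NMF1.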

How the data were processed

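Values were used for 7 NMF4 tumors, 92 NMF1 tumors and 64 normal tissues, and for the other clustered tumors where positions are given. According to the submitters' processing notes and the methods of the study, reads were checked with FastQC 0.10.1, mapped to CanFam3.1 with TopHat2 2.0.9 and Bowtie2, and quantified with Cufflinks 2.1.1. The authors deposited FPKM values, scaled by transcript length and mapped fragments, with no further scaling between libraries stated. Strand-specific settings (fr-firststrand) are given in the methods. Rows were used as deposited, and 33 identifiers carry the values of another, 2 of them among the 1286 calls.

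Tissue and clinical labels came from the sample labels, and the cluster and the basal or non-basal class from a supplementary table of the study. The members, tests and lists were chosen with earlier results of these data known. The tumor CMT-351 has no cluster and entered no comparison.

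Differences were fitted with limma 3.58.1 (R 4.3.3, intensity trend, two-sided, Benjamini-Hochberg) on log2(FPKM + 1), which understates changes of low genes, with a minimum mean of 0.5 FPKM. The fit was tested on simulated data. Identifiers were named by a rule: the 2 with the largest difference in each direction among calls with a mean of at least 5 FPKM in the higher group, since no table used here pairs identifiers with gene names. Tumor and normal tissue of a dog come from 1 animal. Their deviations from the group means correlated at 0.179 on average over 37 NMF1 dogs (28 above 0.1), so the paired fit used the dog as a block. Exact tests and projections used Python 3.11.15, numpy 2.4.6, scipy 1.17.1 and statsmodels 0.14.6. Alternatives were a pseudocount of 0.1, other filters, quantile normalization, covariates, subsets and leaving out single tumors.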

Additional observations from a re-analysis of the deposited data

Results flagged for a closer look

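In the NMF4 group 4 checks of single libraries and 1 comparison stood out. ENSCAFG00000025410 had 19345 FPKM in CMT-756 against 5286 in the next tumor, a gap of 0.730 of the range of the 7 tumors. ENSCAFG00000018828 had 1677 FPKM in CMT-756 against 591 in the next, a gap of 0.648 of the range. ENSCAFG00000015860 had 879 FPKM in CMT-259 against 6.72 in the next, a gap of 0.992 of the range. The normal tissue of CMT-756 lay at 1.19 on the line from NMF1 to normal, below the other 3 normal tissues of NMF4 dogs (nearest 1.39), a gap of 0.846 of their range. In all, 24 sets of values were checked in this way, and chance flags about 5% of such sets. Linear FPKM values are skewed, which such a check does not allow for. The change from own normal tissue differed between NMF4 and NMF1 dogs for 71 identifiers by limma.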

How the results depend on the processing

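Of 167 recomputed values, 18 changed direction or side of the threshold, or for counts moved by over 1.5 times; the cause was not tested unless stated. With a pseudocount of 0.1, which weighs low values more, calls rose to 2109 for NMF4 against NMF1 (1048 higher, 1061 lower), 2252 against the NMF1 tumors without a normal partner, 1872 for NMF1 against normal tissue, 1897 in the NMF1 pairs and 121 (0.824% of identifiers) for the difference in change. With a minimum mean of 5 FPKM, which leaves fewer identifiers to test, NMF4 against NMF1 gave 833 calls (444 higher, 389 lower) and the tumors without a normal partner 924. Without CMT-756 and CMT-613 there were 835. Leaving out 1 NMF4 tumor gave 1012 to 1449 calls against NMF1, and leaving out 1 NMF4 dog called 0.0136% to 1.55% of identifiers for the difference in change. NMF4 against normal tissue gave 0 calls in all 13 alternatives, including the replicate block by dog and the fit without the normal tissues of NMF4 dogs, and the normal tissues of NMF4 dogs gave 0 in all 8. With the dog as replicate block, NMF1 against normal tissue gave 1049 calls again, and without it the NMF1 pairs gave 1099, so the pairing changed no count by much. Against all 150 other clustered tumors, the difference in the share of grade 3 turned to -3.71 percentage points and that of ER-positive tumors to 1.58, both with an exact adjusted p of 1. The median position of NMF4 stayed between 0.921 and 1.19 over 11 alternatives, and 0 NMF1 tumors reached the lowest NMF4 tumor under each of 4 other settings of filter, pseudocount, scaling and identifiers. ENSCAFG00000025410 (5.602 to 7.25) and ENSCAFG00000018828 (5.00 to 7.37) stayed called in all 19. The number of NMF4 tumors, and of 4 with a normal partner, limits all tests, and read depth was not taken into account.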

Other observations

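The tumor CMT-351, which has no cluster, lay at 0.187 on the line from the NMF1 mean to the normal mean, and 18.8% of the 1104 identifiers were nearer to the normal mean. Its root mean square distance on the log2 scale was 0.653 to the NMF1 mean and 0.803 to the normal mean. The same distance to the normal mean ran from 0.573 to 0.947 in NMF4 tumors (median 0.703), had a median of 0.749 in normal tissues and one of 0.849 in NMF1 tumors. CMT-505 was the NMF4 tumor nearest to the normal mean by this distance and CMT-756 the farthest, although CMT-756 was the highest of the 7 on the line.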
